A study of Homo sapiens and Mus musculus with 21 samples.

Results

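The genes described here are 10 markers of mesothelial identity, followed in mesothelioma cells that carry or lose the tumour suppressor BAP1. They were MSLN, MUC16, PDPN, UPK3B, UPK1B, WT1, BNC1, CALB2, HAS1 and LRRN4, found by gene name among the 60674 genes of the human count tables, and by their mouse names among the 41214 genes of the mouse table. All 10 were found in both species. RNA was sequenced in 21 libraries of mesothelioma, a tumour of the pleural lining, as poly-A libraries read on an Illumina HiSeq in single reads of 65 bases. The samples formed a mouse set, a drug set and a knockdown set. The mouse set held 3 libraries of BNC cells (replicates 4, 5 and 6; Bap1-/-;Nf2-/-;Cdkn2ab-/-) and 2 of NC cells (replicates 4 and 5; Nf2-/-;Cdkn2ab-/-), so both groups are labelled as lacking Nf2 and Cdkn2ab. Both are labelled as mouse mesothelioma cells of the pleura. The drug set held 2 libraries each of H2731, labelled Bap1 mutated, and H2810, labelled Bap1 wildtype, both human lines treated with GSK126 or with the vehicle DMSO. GSK126 is a small-molecule inhibitor of EZH2, the histone methyltransferase of the Polycomb complex PRC2. The knockdown set held 2 libraries each of the human mesothelioma lines MSTO-211H and H2810 with a BAP1 shRNA or a random shRNA. BAP1 is a deubiquitinase that removes ubiquitin from histone H2A, the mark placed by Polycomb complex PRC1. Dose, treatment time and hairpin sequence are not given in the sources used here.

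Mesothelium is the single cell layer that lines the pleura, the peritoneum and the pericardium, and it joins epithelial features such as keratins with mesenchymal ones such as vimentin. Calretinin, WT1, podoplanin and mesothelin are the antigens by which pathologists tell mesothelioma from carcinoma. They tend to be kept in epithelioid tumours and lost in sarcomatoid ones. In culture and in bulk RNA, fewer cells of a type and less RNA per cell cannot be told apart.

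Library totals ran from 13693927 to 22916482 counts in the mouse set, from 17927837 to 22927239 in the drug set and from 19707304 to 23217215 in the knockdown set. The labels do not say that replicates were separate cultures or animals, so each p-value measures only the spread between these libraries, which may be technical. BAP1 itself had 13.4 and 20.3 CPM with the BAP1 shRNA, against 115 and 117 CPM with the random shRNA, in H2810, and 15.4 and 17.7 CPM against 100 and 103 CPM in MSTO-211H. CPM are counts scaled to the TMM-adjusted library total. In the drug set BAP1 averaged 69.6 CPM in H2731 and 146 CPM in H2810 with DMSO. In the mouse, Bap1 stood at 30.5, 33.2 and 44 CPM in BNC libraries 4, 5 and 6, against 60.1 and 61.8 CPM in NC libraries 4 and 5. Its groups did not overlap, but the difference was not called (edgeR quasi-likelihood test, adjusted p = 0.62), and the labels do not say which exons the deletions remove. Nf2 was detected in both groups, at 181, 177 and 82.3 CPM in BNC libraries and 117 and 120 CPM in NC libraries, so these counts do not check its deletion. Cdkn2a was at 0 to 0.302 CPM and Cdkn2b at 0 in each mouse library.

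A mouse library stood apart from its group. Between BNC replicate 6 and BNC replicates 4 and 5, chi-square per degree of freedom over genes was 331.21 and 313.07, against 14.99 between replicates 4 and 5 of BNC and 137.21 between those of NC. In the human groups it ran from 2.09 to 18.21, and the highest values, 17.85 and 18.21, were those of the H2810 groups of the knockdown set. The fitted differences of the markers between BNC and NC are therefore given below with and without BNC replicate 6. Counts of genes and list medians in the mouse are given only with it.

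The human genes lie, in coordinates of the files that match GRCh38, at chr16:760734-768865 (MSLN, ENSG00000102854), chr19:8848844-8981342 (MUC16, ENSG00000181143), chr1:13583465-13617957 (PDPN, ENSG00000162493), chr7:76510525-76516522 (UPK3B, ENSG00000243566), chr3:119173517-119205143 (UPK1B, ENSG00000114638), chr11:32387775-32435564 (WT1, ENSG00000184937), chr15:83255903-83284714 (BNC1, ENSG00000169594), chr16:71358713-71390436 (CALB2, ENSG00000172137), chr19:51713112-51723991 (HAS1, ENSG00000105509) and chr20:6040546-6054060 (LRRN4, ENSG00000125872). All 10 are annotated as protein coding, and the counts are given per gene, not split by exon or UTR. Antisense genes overlap WT1 (WT1-AS, over bases 32435518 to 32435564), CALB2 (LINC02136) and BNC1 (ENSG00000259986). Whether counting used the strand is not given, so reads from these antisense pairs may not be separable. On the same strand, ENSG00000251012 overlaps UPK1B over bases 119173517 to 119187807. How reads in that overlap were counted is not given, so the UPK1B counts may miss some. LINC02136 had 0 counts in each of the 16 human libraries, and WT1-AS had 0.0974 to 6.41 CPM. UPK3B has near copies, UPK3BL1 and UPK3BL2, and how reads with several matches were counted is not given. UPK3BL1 had 0 counts in each of the 16 human libraries and UPK3BL2 had 1 count in 1 library.

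RefSeq promoters (GRCh38.p14, 250 bases before to 50 after a start site) were found for WT1, UPK3B, UPK1B, PDPN, BNC1, MUC16 and HAS1, 14 in all. Shown are those of UPK3B and BNC1, which were both higher in H2731 and MSTO-211H than in H2810, and the first of 4 for WT1, which was lower in both. They are written 5′ to 3′ on the gene's strand: UPK3B is chr7:76510302-76510601 (plus strand), BNC1 is chr15:83284615-83284914 (minus strand, the first of 2) and WT1 is chr11:32435490-32435789 (minus strand). Capitals mark a WT1 motif.
UPK3B: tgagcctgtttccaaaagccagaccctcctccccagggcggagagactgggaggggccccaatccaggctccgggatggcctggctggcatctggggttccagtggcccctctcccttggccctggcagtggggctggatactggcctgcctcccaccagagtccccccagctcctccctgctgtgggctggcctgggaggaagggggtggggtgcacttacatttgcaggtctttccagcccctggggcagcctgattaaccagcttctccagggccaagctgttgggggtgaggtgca
BNC1: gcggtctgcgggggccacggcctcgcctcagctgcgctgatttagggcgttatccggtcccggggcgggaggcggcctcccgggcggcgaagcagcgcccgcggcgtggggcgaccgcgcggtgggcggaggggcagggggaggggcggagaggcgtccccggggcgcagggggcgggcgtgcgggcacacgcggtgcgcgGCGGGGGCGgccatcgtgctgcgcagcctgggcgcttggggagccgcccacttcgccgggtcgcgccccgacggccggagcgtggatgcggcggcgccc
WT1: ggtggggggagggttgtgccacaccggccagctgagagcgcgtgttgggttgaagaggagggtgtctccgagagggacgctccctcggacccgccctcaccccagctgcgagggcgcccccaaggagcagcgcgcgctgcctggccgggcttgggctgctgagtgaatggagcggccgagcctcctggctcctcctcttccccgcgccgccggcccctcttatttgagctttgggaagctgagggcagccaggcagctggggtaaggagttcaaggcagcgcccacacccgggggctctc

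Both strands were searched for the WT1 motifs GCGGGGGCG and GCGTGGGCG and for the TEAD motif GGAATG, none of which contains another. A WT1 motif stood at position -49 of the BNC1 promoter shown and at -50 of the HAS1 promoter, and 5.77% of all 35116 promoters hold one. A TEAD motif was found in the UPK1B promoter and in the most downstream WT1 promoter, and 14% of all promoters hold one. The UPK3B promoter has 2 CpG dinucleotides, an observed over expected ratio of 0.0619 (percentile 5.25 among all promoters), while that of BNC1 has 50, a ratio of 1.04 (percentile 94.6). The WT1 promoter shown has 21 CpG dinucleotides and a ratio of 0.575, near the median of all promoters, 0.579. A match is a description of these letters only.

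The human lines expressed different but overlapping sets of markers, with BNC1 in each line. H2810 expressed CALB2, WT1 and BNC1, with little MSLN and almost no UPK3B. It also expressed PDPN with DMSO, but with the random shRNA PDPN was no higher per kilobase than MSLN. H2731 expressed UPK3B and BNC1 at high levels, with less MSLN, CALB2 and WT1. MSTO-211H expressed MSLN, BNC1, UPK3B and CALB2, with less WT1 and HAS1. No line expressed all 10. Levels of different genes were compared as CPM per kilobase of exon. In H2810 with DMSO the order of these levels was CALB2 at 102 ± 2.77, PDPN at 5.48 ± 0.236, BNC1 at 3.62 ± 0.380, WT1 at 2.80 ± 0.0186 and MSLN at 0.762 ± 0.174 CPM per kilobase (SD, n = 2 in each human group), and no neighbours in that order overlapped. In H2731 with DMSO it was UPK3B at 135 ± 4.26, BNC1 at 31.1 ± 0.153, MSLN at 4.05 ± 0.230, CALB2 at 1.54 ± 0.340 and WT1 at 0.529 ± 0.0531 CPM per kilobase, again without overlap between neighbours. In MSTO-211H with the random shRNA MSLN led at 63.1 ± 4.21, then BNC1 at 19.1 ± 0.663, UPK3B at 7.17 ± 0.861, CALB2 at 6.30 ± 1.10, WT1 at 0.918 ± 0.00911 and HAS1 at 0.365 ± 0.0323 CPM per kilobase. There, the ranges of UPK3B and CALB2 overlapped and the other neighbours did not. With the random shRNA, H2810 again had CALB2 first (11.8 ± 0.963 CPM per kilobase), then WT1 (3.08 ± 0.0503) and BNC1 (2.26 ± 0.258), while MSLN (0.802 ± 0.178) and PDPN (0.756 ± 0.154) overlapped.

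UPK1B, MUC16 and LRRN4 were all but undetected in the human lines. UPK1B, a tetraspanin of the urothelial plaque, had 1 count in all, in a library of MSTO-211H with the BAP1 shRNA. MUC16, the membrane mucin that mesothelin binds, had 1 count in all, in H2731 with GSK126. LRRN4, a membrane protein with leucine-rich repeats that is a marker of mesothelial cells, had 0 to 5 counts per group. For a group with no counts, 3 counts allow a level of up to 0.0683 to 0.0789 CPM, a bound on counting error only. In the mouse the same genes were detected: Upk1b and Lrrn4 reached 345 and 25.3 CPM, and Muc16 5.39 CPM, in NC replicate 5. Calb2 was the reverse, at 0 counts in each of the 5 mouse libraries and up to 177 CPM in human libraries. The mouse entry counted as Muc16 spans chr9:18495455-18512885, while the Muc16 gene of the GENCODE annotation reaches at least base 18574918. Its counts may therefore cover only a part of the gene.

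**Figure D1:**
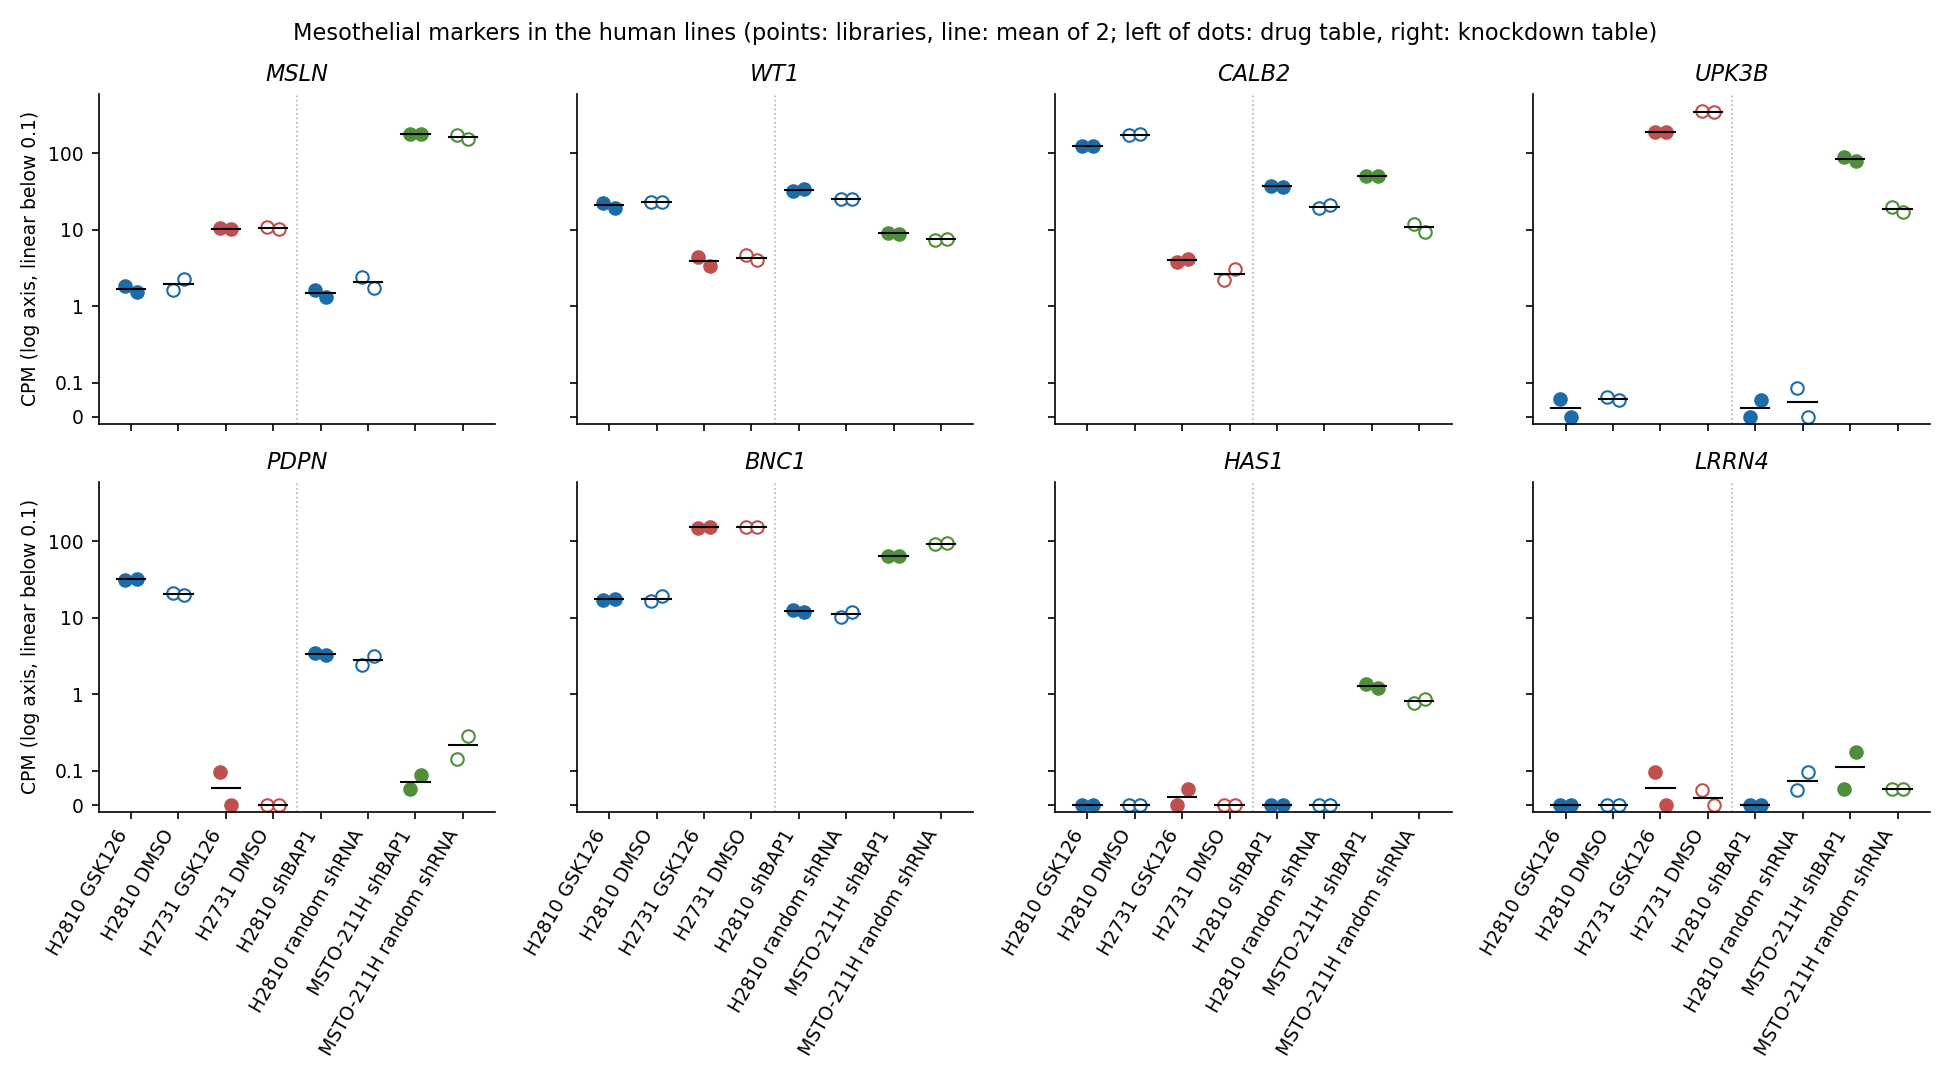
Levels of 8 of the markers in the 16 human libraries, in CPM on a log axis that is linear below 0.1. Each point is a library and each black line the mean of 2; filled points are GSK126 or BAP1 shRNA, open points DMSO or random shRNA, and colour gives the line. UPK3B is at 0 to 0.0858 CPM in H2810, where PDPN is detected, and PDPN is at 0 to 0.289 CPM in the other lines.

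H2731 with DMSO was set against H2810 with DMSO to show how a line with mutated BAP1 differs from one with wild-type BAP1 in these markers. BAP1 state and line cannot be told apart here, since each state is 1 line. Of the 10 markers, 6 passed the filter on low counts and all 6 were called at an adjusted p under 0.05, 3 higher and 3 lower in H2731. Over all 15999 genes tested, 82.2% were called, 41.5% higher and 40.7% lower, so the number of calls is near the background and the size and direction of each difference carry the description.

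Among the surface glycoproteins, MSLN, a lipid-anchored protein targeted by antibodies and cell therapies in mesothelioma, had 10.9 and 10.1 CPM in H2731 with DMSO, against 1.65 and 2.29 CPM in H2810 with DMSO. It was higher in H2731 by 2.39 ± 0.15 (log2 fold change ± SE, adjusted p = 9.92e-12). PDPN, podoplanin, a mucin-type glycoprotein that is also a marker of lymphatic endothelium, had 0 and 0 counts in H2731, against 367 and 404 counts, or 20.9 and 19.7 CPM, in H2810. This is at least 289-fold lower in H2731, with the floor of 3 counts taken over the group. The lymphatic markers PROX1 and LYVE1 were at 0 counts in both H2810 libraries with DMSO. The lymphatic marker FLT4 averaged 1.94 CPM in H2810 and 2.09 CPM in H2731 with DMSO. Of 7 endothelium markers, these 3 included, 4 reached 1 CPM in each H2810 library with DMSO and 1 in each H2731 library. Their part in the PDPN difference was not tested.

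UPK3B, a uroplakin of urothelium and mesothelium, had 354 and 339 CPM in H2731, against 0.0570 and 0.0488 CPM in H2810, which are 14858 against 2 counts. The rate ratio was 6600 with a 95% counting interval of 1830 to 54500. Of the transcription factors, BNC1 (basonuclin 1, a zinc-finger protein) had 152 and 153 CPM in H2731, against 16.4 and 19.1 CPM in H2810, a difference of 3.09 ± 0.06 (adjusted p = 2.31e-20). WT1, a zinc-finger factor of the developing gonad, kidney and mesothelium, went the other way, with 4.61 and 3.99 CPM in H2731 against 22.7 and 22.9 CPM in H2810 (-2.40 ± 0.11, adjusted p = 8.92e-14). CALB2, which encodes the calcium-binding protein calretinin, was also lower: 2.22 and 3.03 CPM in H2731 against 170 and 177 CPM in H2810 (-6.06 ± 0.08, adjusted p = 1.22e-22). In none of the 6 did the 2 lines overlap. Here and below, the share of all genes without such overlap was not computed, so its absence only describes the values.

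Markers of other cell types moved with these differences. The 12 fibroblast markers summed to 408 and 385 CPM in H2731 with DMSO, against 9550 and 10700 CPM in H2810. All 8 that were tested were called lower in H2731, beside 40.7% of all genes tested. The 12 lung adenocarcinoma and epithelium markers summed to 15.4 and 17.0 CPM against 1.83 and 2 CPM. NKX2-1, a factor that marks lung adenocarcinoma and is usually absent from mesothelioma, had 7.82 and 9.51 CPM in H2731, against 0.114 and 0.146 CPM in H2810. Their part in the differences of the 10 genes was not tested.

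MSTO-211H with the random shRNA, a line from a biphasic mesothelioma, was set against H2810 with the same shRNA. Here 7 markers were tested and all 7 were called, 4 higher and 3 lower in MSTO-211H, where 79.7% of all 15872 genes tested were called, 39% higher and 40.7% lower. MSLN had 171 and 155 CPM in MSTO-211H, against 2.40 and 1.75 CPM in H2810, a larger difference than for WT1, CALB2, BNC1 or PDPN (6.28 ± 0.10, adjusted p = 6.88e-13). UPK3B had 766 counts in the 2 libraries of MSTO-211H, against 2 in H2810, a rate ratio of 403 (95% counting interval 111 to 3340). BNC1 was higher by 3.08 ± 0.07 (91.2 and 95.8 CPM in MSTO-211H against 10.2 and 12 CPM in H2810, adjusted p = 9.95e-12). Thus MSLN, UPK3B and BNC1 were above H2810 in H2731 and in MSTO-211H alike.

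HAS1, a synthase of hyaluronan, the polysaccharide that mesothelial cells secrete, had 16 and 18 counts in MSTO-211H and 0 and 0 in H2810, at least 11.9-fold higher with the floor of 3 counts over the group. Its relative HAS2 was the reverse, with 0 and 0 CPM in MSTO-211H against 3.39 and 3.74 CPM in H2810. WT1 had 7.41 and 7.51 CPM in MSTO-211H, against 24.8 and 25.4 CPM in H2810 (-1.75 ± 0.08, adjusted p = 2.07e-09). CALB2 had 12 and 9.39 CPM against 18.9 and 21.2 CPM (-0.90 ± 0.10, adjusted p = 8.48e-06). PDPN had 3 and 6 counts in MSTO-211H, against 56 and 66 in H2810, a rate ratio of 0.0777 (0.0347 to 0.152). WT1, CALB2 and PDPN were thus below H2810 in H2731 as well as in MSTO-211H. The comparisons have separate H2810 libraries, but the same line, so they do not show this independently. Fibroblast markers summed to 1090 and 1050 CPM in MSTO-211H, against 10900 and 10300 CPM in H2810. Of 9 tested, 7 were called lower and 2 higher, beside 40.7% and 39% of all genes. The part of these markers in the result was not tested.

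H2810 itself differed between the sets in some markers, although the tables were normalized separately and no test was made across them. CALB2 averaged 174 ± 4.71 CPM with DMSO and 20 ± 1.64 CPM with the random shRNA, and PDPN 20.3 ± 0.874 and 2.80 ± 0.570 CPM. WT1 was close, at 22.8 ± 0.151 and 25.1 ± 0.409 CPM, and so was MSLN, at 1.97 ± 0.451 and 2.08 ± 0.461 CPM. The BAP1 shRNA and random shRNA values below start from these lower levels of CALB2 and PDPN in H2810.

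The effect of lowering BAP1 was tested in H2810 and in MSTO-211H. In both lines CALB2 rose, and in MSTO-211H UPK3B rose as much while BNC1 fell. In H2810, 2 of the 7 tested markers were called, both higher, where 45.8% of all genes tested were called, 22.5% higher and 23.3% lower. The 7 include UPK3B and HAS1, which had too few counts in H2810 to be called. CALB2 had 36.7 and 36.6 CPM with the BAP1 shRNA, against 18.9 and 21.2 CPM with the random shRNA, and rose by 0.88 ± 0.09 (adjusted p = 1.46e-05). WT1 had 31.8 and 33.9 CPM against 24.8 and 25.4 CPM, and rose by 0.39 ± 0.06 (adjusted p = 0.000532). In neither gene did the groups overlap.

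Of the others in H2810, MSLN had 1.63 and 1.33 CPM with the BAP1 shRNA, against 2.40 and 1.75 CPM with the random shRNA (-0.49 ± 0.21, adjusted p = 0.0724), and was not called although the groups did not overlap. BNC1 had 12.8 and 11.8 CPM against 10.2 and 12 CPM (0.16 ± 0.09, adjusted p = 0.176), with overlapping groups. Without random shRNA replicate 2, both passed the threshold, MSLN at -0.65 (adjusted p = 0.0382) and BNC1 at 0.32 (adjusted p = 0.0255), which made 4 called markers. PDPN had 3.43 and 3.25 CPM with the BAP1 shRNA, against 2.40 and 3.21 CPM with the random shRNA (0.26 ± 0.20, adjusted p = 0.325), without overlap. UPK3B was at 1 count against 2, and HAS1 at 0 in every H2810 library.

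In MSTO-211H, 4 of the 7 tested markers were called, 3 higher and 1 lower. Among all genes tested 46.2% were called, 21.7% higher and 24.5% lower. The 7 include PDPN, which had too few counts in MSTO-211H to be read. CALB2 had 50.8 and 49.6 CPM with the BAP1 shRNA, against 12 and 9.39 CPM with the random shRNA. It rose by 2.23 ± 0.10 (adjusted p = 2.42e-08), to a level above that of H2810 with the same shRNA. UPK3B had 87.6 and 79.9 CPM with the BAP1 shRNA, against 19.9 and 16.8 CPM with the random shRNA, and rose by 2.19 ± 0.09 (adjusted p = 2.58e-08). Both genes thus stood more than 4 times as high with the BAP1 shRNA, with no overlap of the groups.

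BNC1 had 63.8 and 63.5 CPM with the BAP1 shRNA, against 91.2 and 95.8 CPM with the random shRNA, and fell by 0.55 on the log2 scale (-0.55 ± 0.06, adjusted p = 2.55e-05). WT1 had 9.18 and 8.67 CPM against 7.41 and 7.51 CPM, and was called at 0.26 ± 0.09 (adjusted p = 0.0427). That call is marginal: it was lost in 8 of 11 alternatives, the omission of any 1 of the 4 MSTO-211H libraries included, with adjusted p of 0.0332 to 0.191 over all 11. MSLN, already high, had 177 and 177 CPM with the BAP1 shRNA, against 171 and 155 CPM with the random shRNA (0.12 ± 0.06, adjusted p = 0.161). It passed the threshold in 1 of 11 alternatives, a fit of the compared groups alone (0.13, adjusted p = 0.0173). HAS1 had 28 and 28 counts against 16 and 18 (0.65 ± 0.29, adjusted p = 0.0996). Neither was called, although the groups did not overlap in either. PDPN was at 3 counts with the BAP1 shRNA and 9 with the random shRNA, a rate ratio of 0.319 with a counting interval of 0.0556 to 1.28.

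The difference of the 2 responses was tested directly. It was called for 2 of the 7 markers, 1 higher and 1 lower in MSTO-211H. Among all genes tested 27.7% were called, 11.2% higher and 16.5% lower. The 7 include UPK3B, HAS1 and PDPN, which had too few counts in a line to be called, so these shares are not alike. The CALB2 response was larger in MSTO-211H by 1.35 ± 0.13 (2.23 against 0.88, adjusted p = 2.78e-05). The BNC1 response was lower there by 0.71 (-0.71 ± 0.11, with -0.55 in MSTO-211H against 0.16 in H2810, adjusted p = 0.00065). For MSLN the difference was 0.61 ± 0.22 (adjusted p = 0.0573) and passed the threshold in 5 of 14 alternatives, among them those without random shRNA replicate 2 of H2810 (0.77, adjusted p = 0.0279) and without random shRNA replicate 1 of MSTO-211H (0.67, adjusted p = 0.0461). For WT1 it was -0.13 ± 0.11 (adjusted p = 0.453). The UPK3B, HAS1 and PDPN responses could not be compared. H2810 had 1 and 2 counts of UPK3B and 0 and 0 of HAS1, and MSTO-211H had 3 and 9 counts of PDPN. The relatives HAS3, at 5.43 and 5.46 CPM against 2.72 and 1.78 CPM in MSTO-211H, and HAS2, at 7.25 and 6.2 CPM against 3.39 and 3.74 CPM in H2810, were each called higher with the BAP1 shRNA (1.27 ± 0.22 and 0.92 ± 0.17, adjusted p = 0.000767 and 0.0014), both chosen after their values were seen.

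Beside these results, 7 of 9 tested fibroblast markers were called lower and 1 higher in H2810 with the BAP1 shRNA. Over all genes tested there, 23.3% were called lower and 22.5% higher. In MSTO-211H 6 of 9 were called lower and 1 higher, beside 24.5% and 21.7% of all genes. The sum of the 12 fibroblast markers was 8560 and 7640 CPM against 10900 and 10300 CPM in H2810. In MSTO-211H it was 1280 and 1190 CPM against 1090 and 1050 CPM. In MSTO-211H the 6 leukocyte markers summed to 3.17 and 3.13 CPM with the BAP1 shRNA, against 0.382 and 0.723 CPM with the random shRNA. Of these, 2 of 2 tested, PTPRC and ITGAM, were called higher, beside 21.7% of all genes. The part of these markers in the result was not tested.

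**Figure D2:**
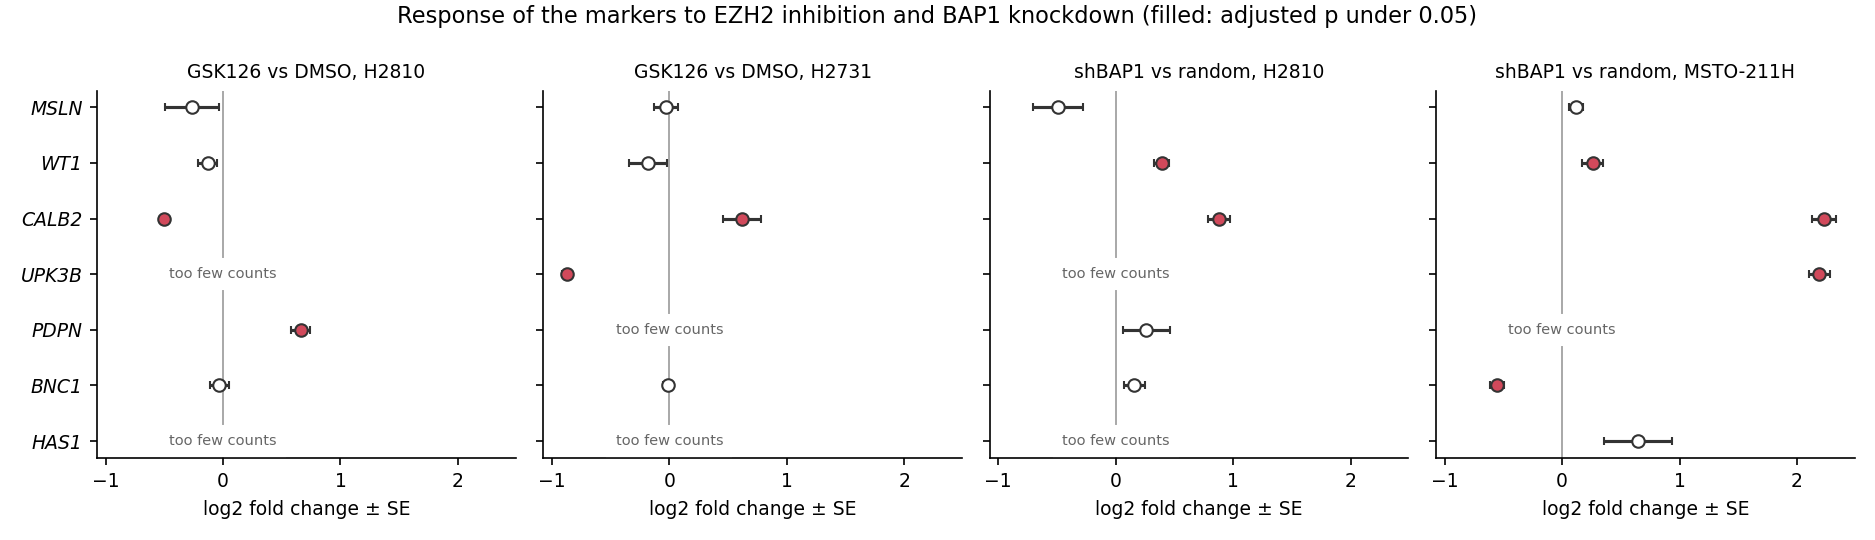
Log2 fold change ± SE of 7 markers with GSK126 over DMSO in H2810 and H2731 and with the BAP1 shRNA over the random shRNA in H2810 and MSTO-211H, from edgeR fits; filled points passed an adjusted p of 0.05. CALB2 is filled in all 4 panels, at -0.50, 0.62, 0.88 and 2.23, and UPK3B is at -0.87 in H2731 with GSK126 and 2.19 in MSTO-211H with the BAP1 shRNA.

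EZH2 inhibition was tested in the line with wild-type BAP1 and in the line with mutated BAP1. CALB2 fell in H2810 and rose in H2731, PDPN rose in H2810 and UPK3B fell in H2731. In H2810, 2 of 6 tested markers were called, 1 higher and 1 lower. Among all genes tested 29.3% were called, 16.3% higher and 12.9% lower. The 6 include UPK3B, which had too few counts in H2810 to be called. CALB2 had 123 and 124 CPM with GSK126, against 170 and 177 CPM with DMSO (-0.50 ± 0.04, adjusted p = 4.2e-08). PDPN had 31.6 and 32.4 CPM with GSK126, against 20.9 and 19.7 CPM with DMSO, and rose by 0.66 ± 0.08 (adjusted p = 2.36e-06). The groups did not overlap in either gene. The 7 endothelium markers summed to 24.1 and 23.5 CPM with GSK126, against 12.7 and 13.9 CPM with DMSO, and 3 of 4 tested were called higher. The lymphatic marker PROX1 had 0.156 and 0.203 CPM with GSK126, against 0 and 0 CPM with DMSO. The part of endothelial markers in the PDPN result was not tested.

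The other markers in H2810 were not called. WT1 had 22.2 and 19.4 CPM with GSK126, against 22.7 and 22.9 CPM with DMSO (-0.13 ± 0.08, adjusted p = 0.266). BNC1 had 17.3 and 17.5 CPM against 16.4 and 19.1 CPM (-0.03 ± 0.08, adjusted p = 0.798). MSLN had 1.82 and 1.52 CPM against 1.65 and 2.29 CPM (-0.26 ± 0.23, adjusted p = 0.457). The groups overlapped in BNC1 and MSLN but not in WT1, and UPK3B had 1 count with GSK126 and 2 with DMSO.

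In H2731, 2 of 6 tested markers were called, 1 higher and 1 lower. Among all genes tested 24.7% were called, 13.8% higher and 10.9% lower. The 6 include PDPN, which had too few counts in H2731 to be called. UPK3B, the marker most abundant in this line, had 190 and 190 CPM with GSK126, against 354 and 339 CPM with DMSO (-0.87 ± 0.04, adjusted p = 4.85e-12), and the call held under each of 11 alternatives, at -0.90 to -0.84. CALB2 had 78 and 89 counts with GSK126, or 3.80 and 4.18 CPM, against 51 and 60 counts, or 2.22 and 3.03 CPM, with DMSO. It was called at 0.62 ± 0.16 (adjusted p = 0.00795), without overlap. That call was lost without GSK126 replicate 2 (0.55, adjusted p = 0.0782) and without DMSO replicate 1 (0.40, adjusted p = 0.206). These omissions left 1 called marker.

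BNC1 had 149 and 154 CPM in H2731 with GSK126, against 152 and 153 CPM with DMSO (-0.01 ± 0.04, adjusted p = 0.957). MSLN had 10.4 and 10.2 CPM against 10.9 and 10.1 CPM (-0.03 ± 0.10, adjusted p = 0.871), and WT1 4.34 and 3.34 CPM against 4.61 and 3.99 CPM (-0.18 ± 0.16, adjusted p = 0.49). The groups overlapped in all 3 of these genes. PDPN, with 0 counts under DMSO, had 2 and 0 counts with GSK126, which is no detectable rise at this depth.

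The responses of the lines to GSK126 differed for 1 of 6 tested markers, where 14.7% of all genes tested were called, 8.08% higher and 6.66% lower. It was CALB2, whose response in H2731 exceeded that in H2810 by 1.12 ± 0.17 (0.62 against -0.50, adjusted p = 8.31e-05). This held under each of 14 alternatives, at 0.89 to 1.34 with adjusted p of 1.23e-08 to 0.0031. For BNC1, MSLN and WT1 the differences were 0.03 ± 0.09, 0.23 ± 0.25 and -0.04 ± 0.18 (adjusted p = 0.903, 0.639 and 0.943). UPK3B in H2810 and PDPN in H2731, both among the 6, had too few counts for their responses to be compared.

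In the mouse, BNC cells, which lack Bap1, were compared with NC cells, which keep it. Of the 10 genes, 7 passed the filter on low counts and 0 were called, as were 0 of all 12225 genes tested (0% called; edgeR quasi-likelihood test). At an unadjusted p under 0.05 there were 823 genes, 6.73%, and DESeq2 called 302, no marker among them. Msln, Upk3b, Upk1b, Pdpn, Lrrn4 and Bnc1 were far lower in BNC replicate 6 than in the other BNC libraries, and most markers were also several times lower in NC replicate 4 than in NC replicate 5.

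Msln had 488, 561 and 0.350 CPM in BNC libraries 4, 5 and 6, against 518 and 878 CPM in NC libraries 4 and 5. Pdpn had 91.3, 87.0 and 0.219 CPM in the same BNC libraries, against 39.2 and 226 CPM in the NC libraries. Both were thus abundant in 4 of 5 libraries and at a few counts, 8 and 5, in BNC replicate 6. Upk3b had 39.3, 46.5 and 1.84 CPM in BNC libraries, against 3.26 and 224 CPM in NC libraries. Upk1b had 50.9, 50.1 and 0.350 CPM in BNC libraries, against 19.5 and 345 CPM in NC libraries. The NC replicates lay on either side of BNC replicates 4 and 5 in both uroplakin genes.

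Bnc1 had 23.2, 23.8 and 0.0438 CPM in BNC libraries, against 3.18 and 41.3 CPM in NC libraries, and Lrrn4 had 16.6, 16.7 and 0.0438 CPM, against 8.03 and 25.3 CPM. Wt1 did not follow them: at 50.8, 38.2 and 130 CPM in BNC libraries, against 8.54 and 109 CPM in NC libraries, it was highest in BNC replicate 6. Muc16 had 9, 7 and 0 counts in BNC libraries, against 0 and 107 in NC libraries, and Has1 had 3, 7 and 0 counts, against 0 and 12. BNC and NC overlapped for each of the 10 genes, Calb2 at 0 in all included.

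The fitted differences of BNC over NC were -1 ± 1.97 for Msln, 0.31 ± 1.10 for Wt1, -1.96 ± 1.79 for Upk3b, -2.44 ± 1.86 for Upk1b, -1.16 ± 1.83 for Pdpn, -0.58 ± 1.70 for Lrrn4 and -0.51 ± 1.92 for Bnc1 (log2 ± SE, adjusted p = 0.872 to 0.981). Without BNC replicate 6 they were -0.42, -0.42, -1.42, -1.87, -0.59, -0.01 and 0.06 in that order, and none was called. The spread within the groups was several-fold, so differences of that size were not detectable with 3 and 2 libraries.

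**Figure D3:**
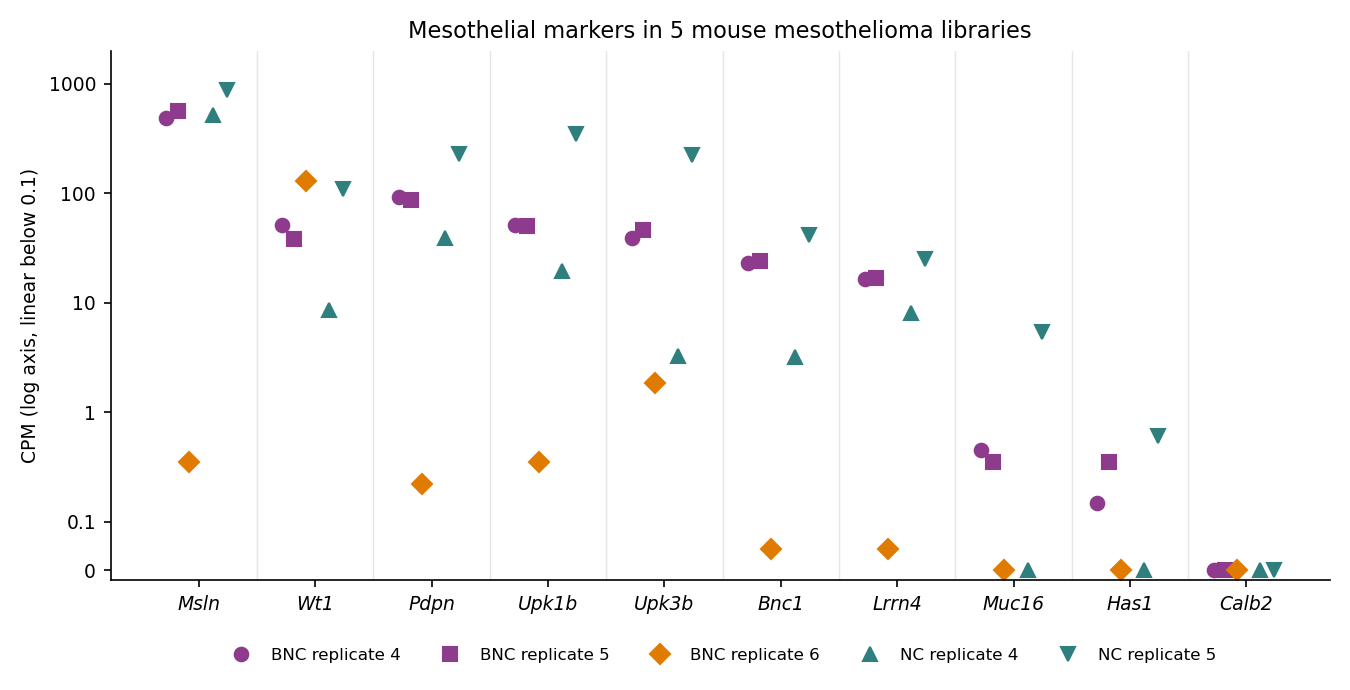
The 10 markers in the 5 mouse libraries, in CPM on a log axis that is linear below 0.1; each symbol is a library and there are 3 BNC and 2 NC libraries. BNC replicate 6 is at 0.0438 to 1.84 CPM for Msln, Pdpn, Upk1b, Upk3b, Bnc1 and Lrrn4 but at 130 CPM for Wt1, and Calb2 is at 0 in all 5.

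The 40 other mesothelial genes did not all follow the markers in BNC replicate 6. Of these, 21 were below and 16 above both BNC replicates 4 and 5, and 24 reached 1 CPM in BNC replicate 6, against 29 and 28 in BNC replicates 4 and 5. Their sum was highest there, at 19600 CPM against 12200 and 12300 CPM in BNC replicates 4 and 5 and 11300 and 13500 CPM in NC replicates 4 and 5, and Vim, a mesenchymal intermediate filament, made up most of it. Among the lower genes, named after their values were seen, Efemp1, which encodes an extracellular matrix protein used as a mesothelioma biomarker, had 0.131 CPM there, against 618 and 530 CPM in BNC replicates 4 and 5. The keratins Krt18 and Krt19 had 0 and 0.175 CPM, against 42.4 and 109 CPM in BNC replicate 4 and 45.6 and 113 CPM in BNC replicate 5. Thbd, thrombomodulin, had 0 CPM, against 84.3 and 89.5 CPM. The summed level of the 10 markers was 133 CPM, almost all of it Wt1, against 761 and 824 CPM in the other BNC libraries and 600 and 1850 CPM in the NC libraries. The 12 fibroblast markers summed to 14300 CPM in BNC replicate 6, against 2010 and 2320 CPM in BNC replicates 4 and 5 and 5690 and 8330 CPM in NC replicates 4 and 5. Of the 12, 7 were above and 2 below both other BNC libraries in BNC replicate 6. Vim had 16000 CPM there, against 5670 and 6020 CPM, and the secreted binding protein gene Igfbp6 had 245 CPM, against 14.9 and 17.5 CPM. Pdgfrb, a receptor of fibroblasts and pericytes, had 115 CPM, against 0.448 CPM in each of BNC replicates 4 and 5. The 6 leukocyte markers summed to 4.64 CPM in BNC replicate 6, against 4.19 and 5.18 CPM in BNC replicates 4 and 5, with Ptprc at 0. The 7 endothelium markers summed to 23 CPM in BNC replicate 6, against 3.09 and 3.54 CPM in BNC replicates 4 and 5. They summed to 9.84 and 72.4 CPM in NC replicates 4 and 5. In BNC replicate 6, 4 of the 7 were above and 2 below both other BNC libraries, and Pecam1 was at 0.0876 CPM. In BNC replicate 6, Msln, Upk3b, Upk1b, Pdpn, Lrrn4 and Bnc1 were thus low. Wt1 and 16 of the 40 other mesothelial genes were above both other BNC libraries. The share of all genes below or above both was not computed, so these counts only describe the library. No test was made on this library alone, and the cause was not tested.

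**Figure D4:**
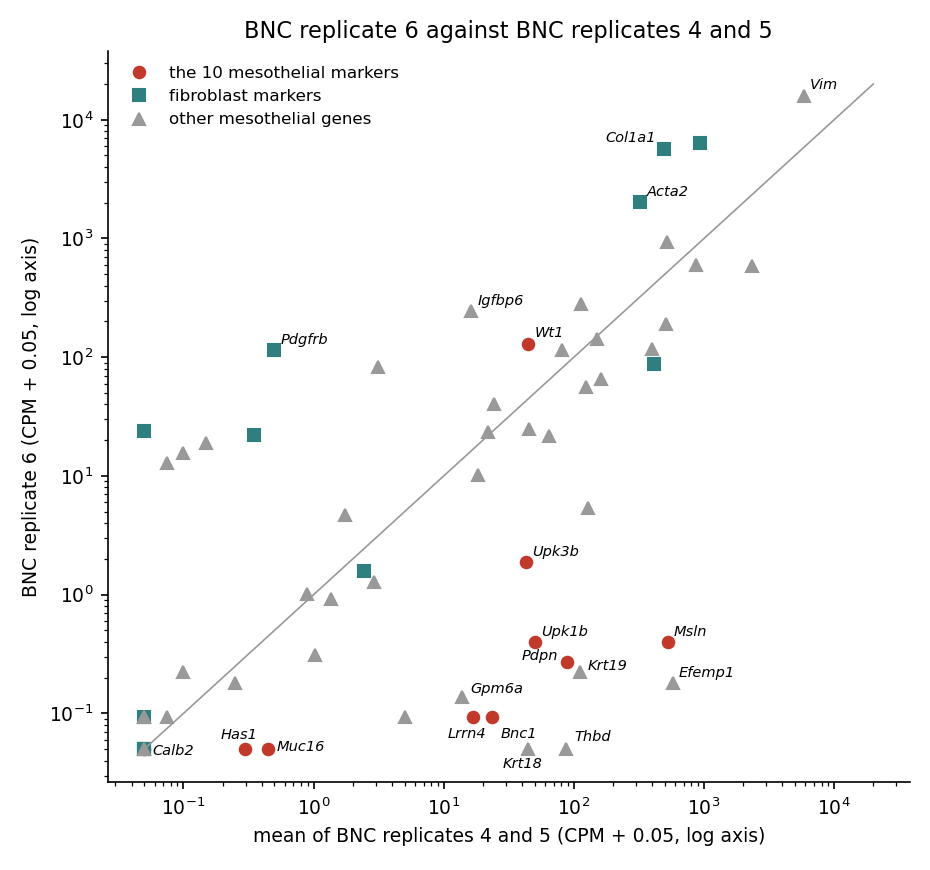
BNC replicate 6 (vertical axis) against the mean of BNC replicates 4 and 5 (horizontal axis), both as CPM + 0.05 on log axes; each point is a gene of the 10 markers, of 12 fibroblast markers or of 40 other mesothelial genes, and the line marks equal levels. Msln, Pdpn, Upk1b, Upk3b, Lrrn4 and Bnc1 lie far below the line, with Krt18, Krt19, Efemp1 and Thbd, while Wt1, Vim, Igfbp6, Pdgfrb and Col1a1 lie above it. Of the 40 other mesothelial genes, 21 are below and 16 above both of the other BNC libraries. Of the 12 fibroblast markers, 2 are below and 7 above both. The share of all genes below or above both was not computed.

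A list of 40 other genes expressed in mesothelium (keratins, cadherins, matrix proteins, complement and transcription factors) gives the surroundings of the 10 markers. With GSK126, 5 of 35 tested were called higher and 20 lower in H2810, beside 16.3% higher and 12.9% lower among all genes tested, with a median log2 fold change of -0.21 against 0.00 over all genes. In H2731, 10 were called higher and 7 lower, beside 13.8% and 10.9% of all genes, with a median of 0.15 against 0.00. The difference of the responses was called for 17 of 35, each of them higher in H2731, beside 8.08% of all genes higher and 6.66% lower, with a median of 0.41 against 0.00, in the direction of CALB2. SEMA3C, a secreted semaphorin, had 112 and 115 CPM with GSK126 against 80.1 and 81.4 CPM with DMSO in H2731, and 95 and 96.4 CPM against 210 and 211 CPM in H2810, and its responses differed by 1.62 ± 0.06 (adjusted p = 2.2e-13). EFEMP1 (1.22 ± 0.05, adjusted p = 4.47e-12) and the sulfatase SULF1 (1.68 ± 0.08, adjusted p = 3.85e-11) differed the same way.

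With the BAP1 shRNA, 9 of 34 tested genes of this list were called higher and 14 lower in H2810, beside 22.5% and 23.3% of all genes, at a median of -0.16 against -0.03 over all genes tested. In MSTO-211H 16 were called higher and 9 lower, beside 21.7% and 24.5% of all genes, at a median of 0.18 against -0.02. PODXL, a sialomucin of podocytes and mesothelium, rose in both, by 0.86 ± 0.06 in H2810 (adjusted p = 1.61e-06) and 0.99 ± 0.05 in MSTO-211H (adjusted p = 1.18e-07). The complement gene C3 had 319 and 309 CPM with the BAP1 shRNA in MSTO-211H, against 70.2 and 57.0 CPM with the random shRNA (2.30 ± 0.10, adjusted p = 2.44e-08), a rise like that of CALB2 and UPK3B. THBD had 2.55 and 2.86 CPM against 23.5 and 21.0 CPM there, and fell by 3.03 (-3.03 ± 0.13, adjusted p = 2.6e-08). The list therefore did not move in a single direction in either line. The responses differed for 16 of 34, 12 higher and 4 lower in MSTO-211H, beside 11.2% and 16.5% of all genes, at a median of 0.16 against -0.02.

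Between lines, 8 of 35 were called higher and 25 lower in H2731 with DMSO than in H2810 with DMSO (median -1.59 against 0.01), and 11 of 34 higher and 23 lower in MSTO-211H than in H2810 with the random shRNA (median -1.05 against -0.03). Among all genes 82.2% were called in the first comparison, 41.5% higher and 40.7% lower. In the second 79.7% were called, 39% higher and 40.7% lower. KRT7, a keratin of simple epithelia, was among the 8 higher ones in H2731, against the direction of most of the list. It had 2340 and 2170 CPM in H2731, against 6.50 and 6.14 CPM in H2810. In the mouse none of the 33 tested was called, at a median of -0.41 against 0.03.

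Among 25 relatives of the markers, such as other hyaluronan synthases, uroplakins and calbindins, 15 were tested in each human set. With GSK126, 3 were called higher and 1 lower in H2810, and 3 higher and 0 lower in H2731, where 29.3% and 24.7% of all genes were called. Their medians were -0.03 and 0.04, against 0.00 over all genes. With the BAP1 shRNA, 3 were called higher and 4 lower in H2810, and 5 higher and 3 lower in MSTO-211H, shares near the 45.8% and 46.2% of all genes called. The medians were -0.09 and 0.16, against -0.03 and -0.02 over all genes.

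Of 20 genes known as targets or partners of WT1, 17 were tested in the drug set and 16 in the knockdown set. With the BAP1 shRNA, 7 were called higher and 6 lower in H2810, beside 22.5% and 23.3% of all genes, at a median of 0.27 against -0.03. In MSTO-211H, 7 were called higher and 1 lower, beside 21.7% and 24.5% of all genes, at a median of 0.19 against -0.02. WT1 itself was called higher in both lines, but in MSTO-211H the call was lost in 8 of 11 alternatives. The WT1 target PODXL, given above, was among the higher ones in both lines, while SPRY1 and IGF2 fell in H2810 (-1.33 ± 0.10 and -1.39 ± 0.12, adjusted p = 2.37e-06 and 5.82e-06). With GSK126, where WT1 was not called, 4 were called higher and 4 lower in H2810, beside 16.3% and 12.9% of all genes, at a median of 0.05 against 0.00. In H2731 4 were called higher and 1 lower, beside 13.8% and 10.9% of all genes, at a median of -0.02 against 0.00. SFRP1, a secreted Wnt antagonist, rose by 1.52 ± 0.11 in H2810 (adjusted p = 4.16e-09) and 0.41 ± 0.06 in H2731 (adjusted p = 8.35e-05).

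The genes most like a marker were sought by the root mean square difference of log2 fold change over the 4 treatment comparisons, among the 11326 genes that were tested in both human tables and averaged 1 or more in log2 CPM. For CALB2 they were PIK3R3 (0.321), a regulatory subunit of PI3-kinase, and CCL5 (0.385), a chemokine. PIK3R3 stood at -0.10, 0.19, 0.66 and 2.37 with GSK126 in H2810 and H2731 and with the BAP1 shRNA in H2810 and MSTO-211H, beside -0.50, 0.62, 0.88 and 2.23 for CALB2. CCL5 stood at -0.20, 1.07, 0.82 and 2.77. For UPK3B the rule named SUSD2 and MYLK3, and for PDPN CST1 and DECR1, but each of these rests on fold changes of a marker with fewer than 10 counts in a line and is not read further.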

How the data were processed

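RNA was sequenced in 21 libraries, and the values are the raw counts per gene that the authors deposited, in 1 mouse and 2 human tables, whole numbers with no normalization. Per the submitters' processing notes, mm10 and GRCm38 were the builds, and the tools named, without their roles, are HTSeq, TopHat, TopHat2 2.0.12 and DESeq2. The human build, annotation, strand setting and handling of reads with several matches are not given in the sources used here; 99.9% of the human gene IDs found in GENCODE for GRCh38 overlap their annotated gene, as do 99.8% of the mouse IDs for GRCm38. The knockdown table has 1 line without a gene name, which sums to 0 counts and was dropped.

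Each table was fitted with all its groups in edgeR 4.0.16 (R 4.3.3): filterByExpr, TMM factors, quasi-likelihood F tests, and Benjamini-Hochberg adjustment over all genes tested, with calls at an adjusted p under 0.05. The SE is the log2 fold change divided by the square root of F. Tables were not tested against each other. No fitted effect is reported for a marker with fewer than 10 counts in each of the groups compared. For a difference of responses this holds where each group of either line has fewer than 10 counts. Counting intervals and floors reflect counting error alone. The scripts were tested on simulated counts.

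The 10 markers and the gene lists were chosen with earlier results of these data known. All 10 are named in each comparison, and from each list up to 3 called genes with the smallest p. Alternatives were DESeq2 1.42.0, limma-voom from limma 3.58.1, RLE scaling, a stricter filter (50 or more counts in 2 libraries) or none, a fit of the compared groups alone, a replicate block, the omission of each library, and CPM of raw totals.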

Additional observations from a re-analysis of the deposited data

Results flagged for a closer look

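Responses of a marker to the same treatment differed between lines in 3 cases, by the interaction term of the edgeR fit, with p-values adjusted by Benjamini-Hochberg. The CALB2 response to GSK126 was higher in H2731 than in H2810 by 1.12 ± 0.17 on the log2 scale (adjusted p = 8.31e-05), with a rise in H2731 and a fall in H2810. CALB2 differed again under the BAP1 shRNA, where the response in MSTO-211H exceeded that in H2810 by 1.35 ± 0.13 (adjusted p = 2.78e-05). The BNC1 response to the BAP1 shRNA was lower in MSTO-211H than in H2810, at -0.71 ± 0.11 (adjusted p = 0.00065). The first rests on 111 CALB2 counts in H2731 with DMSO, against 6616 in H2810 with DMSO.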

How the results depend on the processing

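Over the alternatives, fitted effects of the markers were unchanged in direction and call in 523 cases, lost the call in 10, gained it in 8 and changed sign in 20, none of which was called in the main analysis. The calls of CALB2 and PDPN in H2810 with GSK126, UPK3B in H2731 with GSK126, WT1 and CALB2 in H2810 with the BAP1 shRNA, CALB2, UPK3B and BNC1 in MSTO-211H and the 3 response differences held under each of them. CALB2 in H2731 with GSK126 and WT1 in MSTO-211H did not, as given above.

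DESeq2 called 302 genes for BNC against NC, 2783 and 2123 for GSK126 in H2810 and H2731, and 1401 for the difference of these responses; higher genes made up 65.5% of calls in H2731, against 55.8% by edgeR. With a library left out, H2731 with GSK126 had 2338 to 3185 genes and 1 to 2 markers called, and H2810 with the BAP1 shRNA 2 to 4 markers. Same-numbered libraries of different groups had deviations from the group means that correlated at -0.306 to 0.336. This does not show whether they share a culture or batch, and the numbers were not used as pairs. With a replicate block, the mouse had 1 call, WT1 in MSTO-211H lost its call (adjusted p = 0.0563) and the MSLN response difference gained one (0.61, adjusted p = 0.0451); no other marker's call changed.

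Signs turned as follows, and the cause was not tested. In the mouse, the block gave Upk3b 0.49, Lrrn4 0.22 and Bnc1 0.96. Leaving out 1 mouse library at a time, Wt1 ran from -0.58 (without NC replicate 4) to 3.09 and was -0.42 without BNC replicate 6. Upk3b ran from -2.93 to 3.16, Upk1b from -3.35 to 0.79, Pdpn from -1.92 to 0.60, Lrrn4 from -1.18 to 0.47 and Bnc1 from -1.40 to 2.30, lowest without NC replicate 4 and highest without NC replicate 5; Bnc1 was 0.06 without BNC replicate 6. In H2810 with GSK126, MSLN ran from -0.46 to 0.01 and BNC1 from -0.13 to 0.08, positive without DMSO replicate 2. In H2731, BNC1 ran from -0.03 to 0.02, positive without GSK126 replicate 1, and MSLN from -0.09 to 0.03, positive without DMSO replicate 1. The difference of the GSK126 responses ran from -0.24 to 0.13 for WT1 (also 0.05 and 0.07), from -0.04 to 0.43 for MSLN and from -0.09 to 0.12 for BNC1. Where a group kept 1 library, it was assumed to vary like the other groups. Depth limits UPK1B, MUC16 and LRRN4 in the human lines, UPK3B in H2810, and PDPN in H2731 and MSTO-211H. The human UPK1B counts may also be limited by the overlapping gene on its strand.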
